A study of Sus scrofa with 18 samples.

Results

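The genes of cholesterol synthesis, uptake control and handling were followed in the RNA-seq libraries of subcutaneous fat (SAF) and visceral fat (VAF) of male pigs of the Bama miniature breed. The members were chosen by gene symbol from a written list of 29 names, and 27 of them had a row among the 29884 genes counted. IDI1 and ERG28 had no row under these symbols. SAF came from the back between the last ribs and VAF from the fat beside the kidney, and each depot was sampled at 1, 3 and 6 months with 3 libraries a group. The groups are named SAF1, SAF3, SAF6, VAF1, VAF3 and VAF6 after depot and age. All pigs were male offspring of 1 sire, were raised under the same conditions and were fasted before slaughter, so every library describes fasted fat. The comparisons ask how the depots differ at each age and how each depot changes with age.

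Cholesterol is built from acetyl-CoA through mevalonate, isoprene units, squalene and lanosterol, and the last steps turn lanosterol into cholesterol by demethylation, reduction and double-bond shifts. Most enzymes of the pathway are known to be driven by the sterol-sensing transcription factors called sterol regulatory element binding proteins, which are released when membrane sterol falls. Fat cells store much of the body's free cholesterol at the surface of their lipid droplets and take up more of it than they make.

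Levels are given as CPM, counts scaled to a library total of 1000000 after adjustment by the trimmed mean of M values (TMM) over the 18 libraries. Library totals lay between 16404239 and 22857354 counts, and the 27 members passed the low-count filter in every comparison. At 6 months the third libraries stood apart from the rest of their groups: the summed level of 5 adipocyte markers, all detected in every library, was 9380 CPM in SAF6-3 and 8680 in VAF6-3, against 13500 to 16400 in the other 6-month libraries. The markers did not all fall: PLIN1 stood at 2040 CPM in SAF6-3, above 1817 and 1362 in SAF6-1 and SAF6-2. ADIPOQ stood at 2140 CPM in VAF6-3, between 2029 and 2386 in VAF6-1 and VAF6-2. The other markers were lower than in the rest of the group, LPL and CIDEC most. The 4 macrophage markers, again detected in every library, summed to 537 CPM in SAF6-3 and 1610 in VAF6-3, against 188 to 466. The study left out a library it calls VAF6-3. It is taken here as the library of that name and stays out of the tests, so VAF6 holds 2 libraries. By sample title, the third VAF6 replicate is instead the library called VAF3-3 here. VAF3-1 and VAF3-2 carried 1420 and 540 CPM of 6 urothelial markers, against at most 5.35 in any other library. These sums came from UPK1A, UPK1B, UPK2 and UPK3A, while UPK3B and KRT5 reached at most 1.43 CPM in VAF3-1 and VAF3-2. Smooth muscle markers summed to 5750 and 5000 CPM in the same 2 libraries, against at most 838 elsewhere, and their adipocyte markers summed to 4930 and 4270 CPM. In VAF3-3 the 5 kidney tubule markers summed to 21.7 CPM, against at most 2.58 in any other library. The 6 adrenal cortex markers measured summed to 1.64 to 62.7 CPM, with CYP11A1, CYP17A1 and NR5A1 at 0 in some libraries. For 2 VAF samples, VAF6-1 and VAF3-3, the library name and the labelled age disagree between 3 and 6 months, and libraries are grouped here by their library names. The other reading, by title and labelled age, places VAF6-1 at 3 months, leaves out VAF3-3 and keeps VAF6-3 in VAF6. By the study's records of read filtering, every SAF library but SAF6-3 differs from the VAF libraries in reads with many unread bases, so at 1 and 3 months depot and this property cannot be told apart. In tissue of mixed cells, fewer cells of a type and less RNA per cell cannot be told apart.

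The upstream sequences of EBP and HMGCS1 are shown because these members behaved differently in the third 6-month libraries, as described further on: EBP lay farthest below the other libraries of its groups, and HMGCS1 was intermediate. Each run is the 250 bases before the gene start in RefSeq on Sscrofa11.1, written on the gene's strand, and the HMGCS1 window also holds the start of a non-coding gene on the other strand. Capitals mark TCACNCCAC, a form of the sterol regulatory element, and CCAAT on either strand. The windows are chr16:27957262-27957511 on the minus strand for HMGCS1 and chrX:42670342-42670591 on the plus strand for EBP.
HMGCS1: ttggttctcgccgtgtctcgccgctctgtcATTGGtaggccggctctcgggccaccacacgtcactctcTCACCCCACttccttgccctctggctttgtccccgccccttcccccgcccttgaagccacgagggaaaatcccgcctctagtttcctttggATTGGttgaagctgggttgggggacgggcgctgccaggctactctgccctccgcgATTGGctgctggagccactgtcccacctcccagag
EBP: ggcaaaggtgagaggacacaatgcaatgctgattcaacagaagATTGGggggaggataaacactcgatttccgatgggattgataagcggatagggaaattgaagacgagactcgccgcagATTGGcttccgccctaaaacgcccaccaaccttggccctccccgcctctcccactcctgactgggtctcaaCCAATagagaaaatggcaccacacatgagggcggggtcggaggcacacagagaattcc
TCACNCCAC was found in the windows of 2 of 27 members, HMGCS1 among them, and in 0.77% of 20638 windows of the same length. CCAAT was found in 23 of 27 member windows, or 85.2%, and in 32% of all windows. The letters GGGCGG stood in 74.1% of member windows and 44.5% of all windows, both strands searched, and TCACGTGA in no member window and 0.712% of all. A match of letters is a description of these windows.

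**Figure D1:**
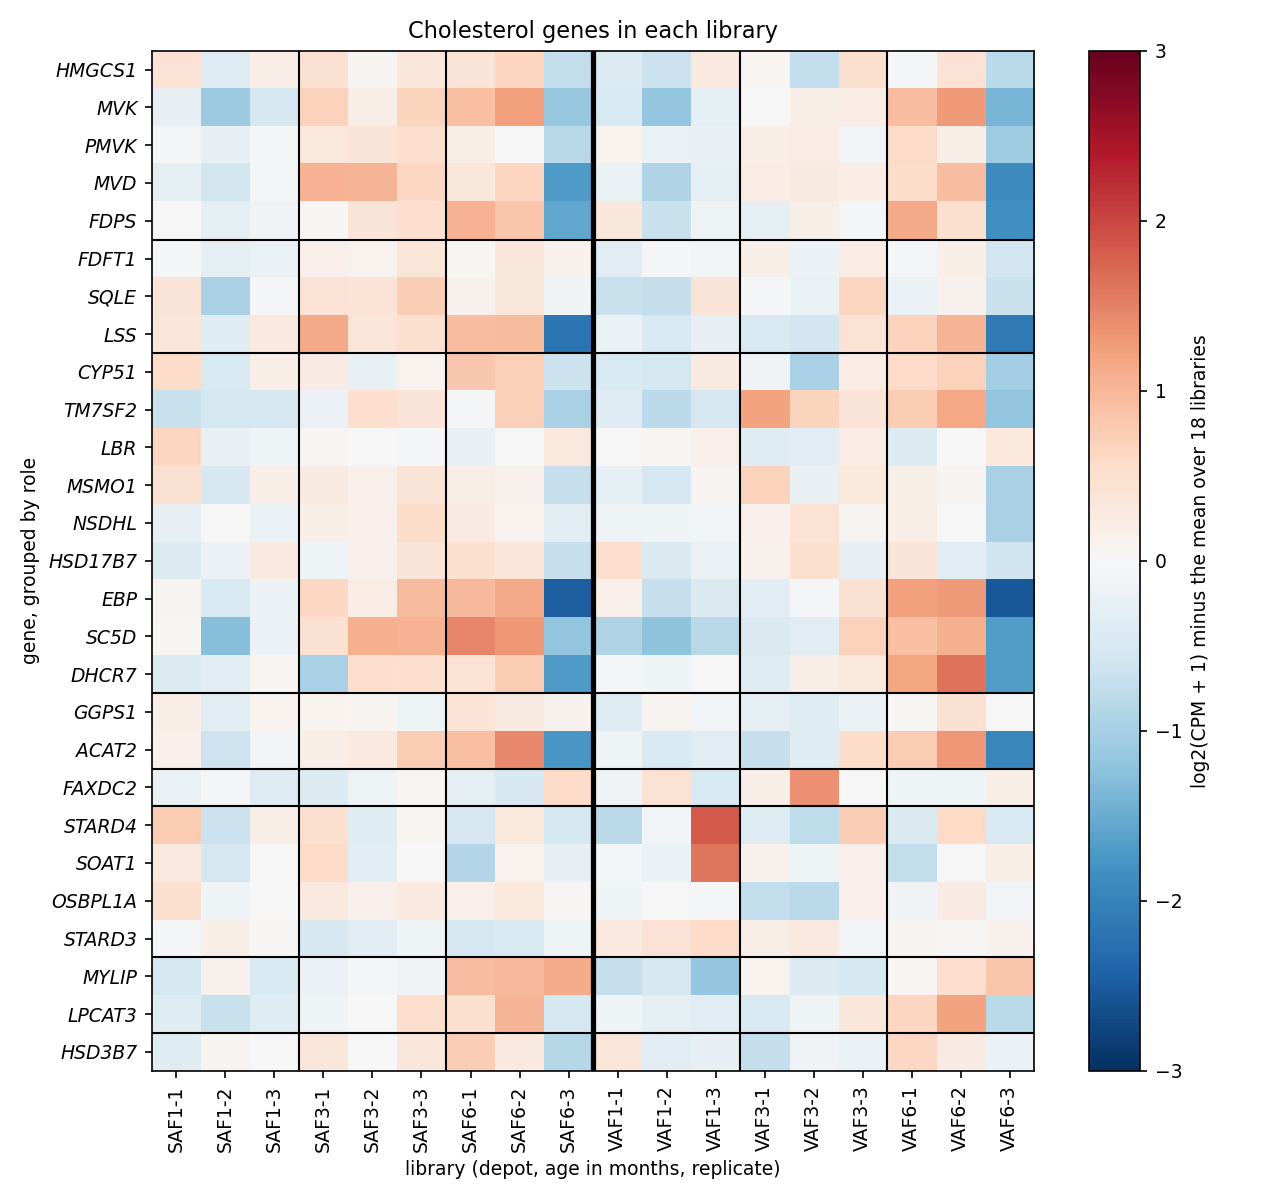
Level of the 27 members in each of the 18 libraries, as log2(CPM + 1) minus the gene's mean over the libraries; rows are genes grouped by role, columns are libraries, and lines part the roles and groups. SAF6-3 and VAF6-3 are the lowest libraries for LSS, EBP and DHCR7, while MYLIP is at its highest in SAF6-3.

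Per length of exon, the most abundant member was LSS, which closes squalene epoxide into lanosterol, with a median of 66.9 CPM per kb over the 18 libraries. EBP, the isomerase that shifts a ring double bond late in the pathway, followed at 60.1 CPM per kb, and FDPS, which makes farnesyl diphosphate, at 59.7. STARD4, a soluble carrier of cholesterol, was the least abundant at 0.564 CPM per kb, below MVK, mevalonate kinase, at 1.93. These levels per kb rest on RefSeq exon lengths, and EBP and FDPS are too close to be put in order.

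Among the mevalonate enzymes, HMGCS1, which joins acetyl units to the precursor of mevalonate, ranged from 36.2 CPM in VAF6-3 to 102 in SAF6-2. PMVK, which adds the second phosphate to mevalonate, ranged from 9.83 to 33.2 CPM. MVD, which forms isopentenyl diphosphate, ranged from 9.79 CPM in VAF6-3 to 83.1 in SAF3-1. The enzyme that turns over the isoprene unit, listed as IDI1, has no row, but the gene LOC100625049 on chromosome 10, whose RefSeq product is isopentenyl-diphosphate Delta-isomerase 1, ranged from 18 to 257 CPM. C7H14orf1 on chromosome 7, an older symbol of ERG28, a scaffold protein of the sterol demethylation enzymes, ranged from 17 to 92.4 CPM and shares exon sequence with TTLL5. Neither is a member or enters a count.

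Squalene synthase FDFT1 and squalene epoxidase SQLE were the steadier enzymes of the middle of the pathway. FDFT1 lay between 59.6 and 115 CPM, and SQLE between 8.99 and 31.5 CPM. LSS ran from 57.1 CPM in SAF6-3 to 584 in SAF3-1.

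The steps from lanosterol to cholesterol varied unevenly. CYP51, the lanosterol demethylase, ran from 35.6 to 130 CPM, MSMO1, the methyl sterol oxidase, from 24.9 to 82.0, and NSDHL, a sterol dehydrogenase, from 14.7 to 44.0. LBR, a sterol reductase of the nuclear membrane that also binds lamin, ran from 28.6 to 59.7 CPM, and HSD17B7, a sterol ketoreductase, from 8.62 to 21.3. EBP had the widest range of all members, from 11.3 CPM in VAF6-3 to 174 in VAF6-2, a ratio of 15.3.

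Outside the enzymes, GGPS1, which branches the isoprenes off to geranylgeranyl diphosphate, had the smallest ratio of highest to lowest library, at 1.82. SOAT1, which esterifies cholesterol for storage, stood at 58.8 CPM in VAF1-3 and at 9.68 to 27.9 elsewhere, and STARD4 at 16.3 CPM in VAF1-3 and at 1.77 to 7.10 elsewhere. FAXDC2, a member of the fatty acid hydroxylase family, was highest in VAF3-2 at 47.3 CPM and lay between 12.4 and 26.6 in the others. OSBPL1A, an oxysterol-binding protein of the late endosome, ranged from 36.3 to 89.5 CPM, and HSD3B7, an enzyme of bile acid synthesis, from 47.0 to 142. STARD3, which moves cholesterol at late endosomes, ranged from 11 to 24.7 CPM.

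In VAF, 4 members rose between 1 and 6 months: SC5D, DHCR7, TM7SF2 and ACAT2. SC5D, DHCR7 and TM7SF2 act in the last steps of the pathway, where SC5D introduces a ring double bond, DHCR7 makes the last reduction to cholesterol and TM7SF2 is a sterol reductase; ACAT2 makes acetoacetyl-CoA, the feed of the first step. No member fell. In this comparison 0.936% of the 15175 genes tested were called, by edgeR's quasi-likelihood test. A gene was called where its p, adjusted after Benjamini and Hochberg over all genes tested, was under 0.05 and its level changed by more than 1.5 times; folds are given on the log2 scale (log2FC). The fold changes are of 2 VAF6 libraries over 3 VAF1 libraries, which also serve the comparison of 3 with 1 months.

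SC5D stood at 41.6, 33.4 and 44.2 CPM in the VAF1 libraries and at 148 and 168 in VAF6-1 and VAF6-2. Its log2FC was 1.99 ± 0.18 (SE), with an edgeR adjusted p of 0.027. DHCR7 stood at 30.4, 29.2 and 32.4 CPM in VAF1 and at 74.1 and 100.4 in VAF6, a log2FC of 1.51 ± 0.18 and the same adjusted p of 0.027 by edgeR. For both genes VAF6-1 and VAF6-2 lay above every VAF1 library, and DHCR7 varied little among the 1-month libraries. VAF6-3, left out of the test, lay below every VAF1 library, at 24.1 CPM for SC5D and 9.34 for DHCR7.

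TM7SF2 stood at 6.62, 4.77 and 6.10 CPM in VAF1 and at 16 and 21.3 in VAF6, with a log2FC of 1.68 ± 0.25 and an edgeR adjusted p of 0.045. ACAT2 stood at 43.8, 35.1 and 38.4 CPM in VAF1 and at 82.5 and 121 in VAF6, with a log2FC of 1.38 ± 0.21 and an edgeR adjusted p of 0.046. For these genes too, VAF6-1 and VAF6-2 lay above every VAF1 library. VAF6-3, left out of the test, again lay below every VAF1 library, at 3.42 CPM for TM7SF2 and 11.8 for ACAT2. ACAT2 shares exon sequence with TCP1 and SC5D with LOC106504896, and the strand setting of the counting is not stated, so reads of these pairs cannot be told apart.

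**Figure D2:**
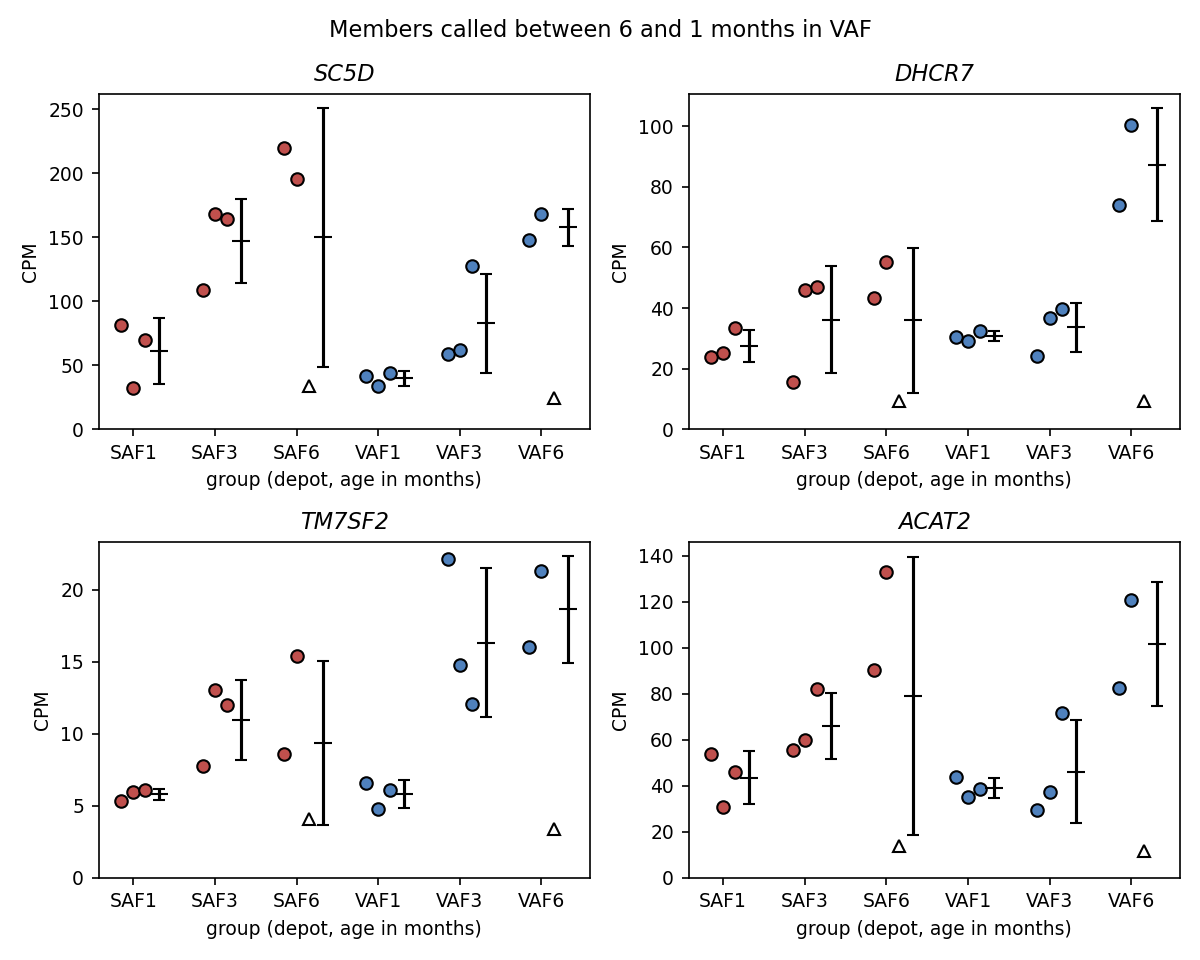
CPM of SC5D, DHCR7, TM7SF2 and ACAT2 in each library of the 6 groups, circles for single libraries, triangles for SAF6-3 and VAF6-3, and dashes with bars for the mean and SD without VAF6-3. In VAF the 2 tested libraries of 6 months lie above all 3 of 1 month for each gene, and the triangles lie below their groups.

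LSS (log2FC 1.16 ± 0.19), EBP (1.55 ± 0.26), MVK (1.81 ± 0.31) and LPCAT3 (1.21 ± 0.21), an enzyme that remodels membrane phospholipids and answers to oxysterols, missed the limit narrowly, with edgeR adjusted p from 0.054 to 0.057. Across the members, 22 log2FC were positive and 5 negative, with a median of 0.49, against a median of -0.02 over all genes tested. For the 17 synthesis enzymes measured the median was 0.83, and 16 of 17 were positive. With VAF6-3 left out, every VAF6 library lay above every VAF1 library for 14 members and below for 1, STARD3. Over all genes 18.9% lay above and 18.6% below. The 5 adipocyte markers summed to 8880 to 15200 CPM in VAF1 and to 15400 to 16100 in the 2 VAF6 libraries, and the 4 macrophage markers to 285 to 633 and 409 to 466; their part in the result was not tested.

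The 4 calls were not all made when a VAF1 library was left out. Leaving out VAF1-1 left 2 member calls, EBP and SC5D, with 0.874% of all genes, and leaving out VAF1-2 or VAF1-3 left 0. Leaving out VAF6-1 or VAF6-2 also left 0, but VAF6 then holds 1 library, assumed to vary like the VAF1 libraries. Including VAF6-3 left 0, as did the other reading of the labels and a fit of all 17 libraries together, while DESeq2 called 10 members and 5.65% of all genes. With the replicate number as a block the count was 12 members and 5.46% of all genes. This block joins different pigs across ages, and VAF1-3 has no partner in it, so its count says little. The log2FC of the 4 genes lay between 0.76 and 2.08 in every alternative run.

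**Figure D3:**
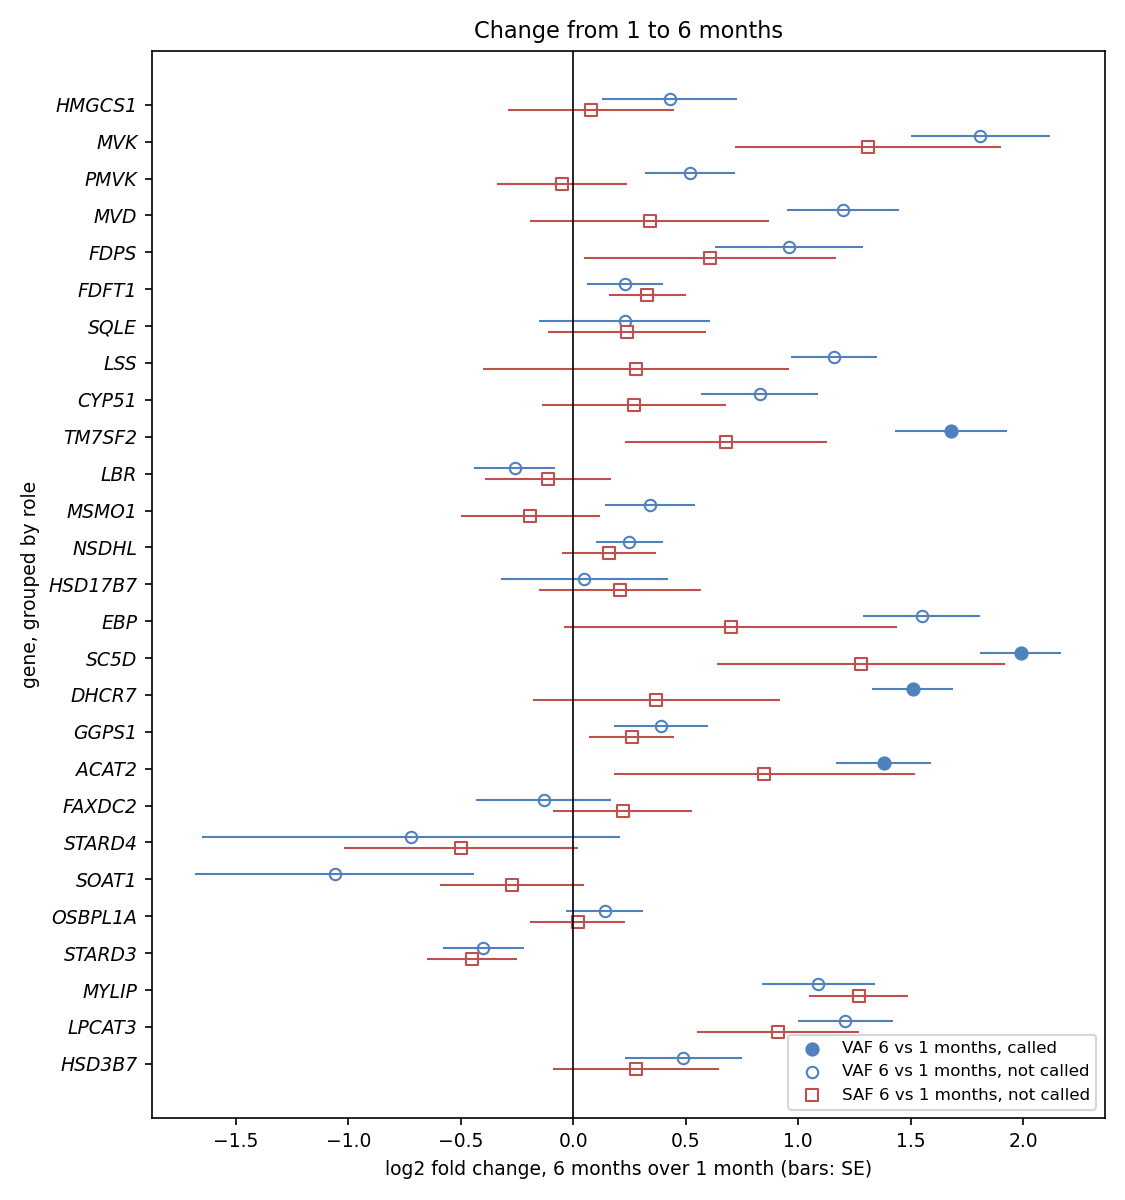
Log2FC between 6 and 1 months for the 27 members with SE bars, circles for VAF and squares for SAF, filled where called. The 4 filled points are SC5D, DHCR7, TM7SF2 and ACAT2 in VAF. For these 4 genes the bars in SAF are wider. The SAF test keeps SAF6-3, while VAF6-3 is left out of the VAF test, so the bars and calls carry this asymmetry.

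From 1 to 3 months in VAF no member was called, nor any gene (0.0% of 15275). DESeq2 called 1 member, TM7SF2. The share of all genes that DESeq2 called is not given here, so this count has no background beside it. By edgeR, 4 members and 9.07% of genes had an unadjusted p under 0.05. TM7SF2 had the smallest p, with a log2FC of 1.5 ± 0.32 and an edgeR adjusted p of 0.33. Its values were 22.1, 14.8 and 12.1 CPM in VAF3 against 4.77 to 6.62 in VAF1, so the groups did not overlap. SC5D (1.07 ± 0.33) and MVD (0.69 ± 0.22) followed, with edgeR adjusted p of 0.38 and 0.41. In every library 6 members lay above, MVK, MVD, TM7SF2, NSDHL, SC5D and MYLIP, and none below, while 5.42% of all genes lay above and 6.96% below. VAF3-1 and VAF3-2 carry the urothelial and smooth muscle markers given above, and the part of these markers in the values was not tested. Without these 2 libraries, an alternative chosen after seeing the data, the enzymes' median log2FC was 0.53 in place of 0.24. VAF3 then holds 1 library, VAF3-3, which carries LRP2, SLC34A1 and UMOD of the kidney tubule markers given above. Its spread is taken from the other libraries, so only the log2FC is given.

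From 3 to 6 months in VAF no member and no gene was called (0.0% of 15596). DESeq2 called 3 members, DHCR7, EBP and MVK, again without its share of all genes given. By edgeR, 8 members and 10.8% of genes had an unadjusted p under 0.05. DHCR7 had a log2FC of 1.37 ± 0.31, EBP of 1.19 ± 0.31 and MVK of 1.02 ± 0.27, each with an edgeR adjusted p of 0.45. EBP stood at 56.6, 69.0 and 97.2 CPM in VAF3 and at 167 and 174 in VAF6. With VAF6-3 left out, every VAF6 library lay above every VAF3 library for 12 members and below for 1, FAXDC2, against 14.1% and 12.6% of all genes. Without VAF3-3, which leaves the 2 libraries with urothelial and smooth muscle markers, the edgeR test called 6 members and 11% of all genes; their adipocyte markers, given above, were lower than the 15400 to 16100 CPM of VAF6, and the part of this was not tested. Under the other reading of the labels the enzymes' median log2FC was -0.07 in place of 0.28, and that of EBP was -0.07. That reading also brings VAF6-3 into VAF6, so the labels and this library cannot be told apart.

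In SAF no member was called between 1 and 3 months, where 0.101% of the 14892 genes tested were. MVD came nearest, at 83.1, 81.7 and 61.1 CPM in SAF3 against 32, 26.7 and 38.5 in SAF1. Its log2FC was 1.21 ± 0.19 and its edgeR adjusted p 0.068, with a range from 1.1e-05 to 0.45 over the alternatives. MVK (1.20 ± 0.27) and PMVK (0.53 ± 0.14) followed with edgeR adjusted p of 0.13 and 0.16. PMVK shares exon sequence with KCNN3. Of the members, 12 lay above in every SAF3 library and 1, STARD3, below, where 10.6% and 9.13% of all genes did. At an unadjusted p under 0.05 the counts were 12 of 27 members and 13.6% of all genes. DESeq2 called 5 members, EBP, MVD, MVK, SC5D and TM7SF2, and 2.5% of all genes.

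From 3 to 6 months in SAF nothing was called among the 14689 genes tested by edgeR (0.0%), and 1 member and 9.56% of genes had an unadjusted p under 0.05. DESeq2 called 1 member, MYLIP, without its share of all genes given. MYLIP, a ubiquitin ligase that marks lipoprotein receptors for breakdown and is induced by oxysterols, stood at 79.8, 82.1 and 91.4 CPM in SAF6 and at 36.4, 40.1 and 38.6 in SAF3. The groups did not overlap, and the SAF6-3 library was the highest. Its log2FC was 1.14 ± 0.16 with an edgeR adjusted p of 0.12 and a DESeq2 adjusted p of 3.8e-06; over the alternatives it lay between 3.8e-06 and 0.51. SQLE (-0.42 ± 0.19) and PMVK (-0.58 ± 0.28) were next, with edgeR adjusted p of 0.55 and 0.56. PMVK stood at 11.7 CPM in SAF6-3 against 25.4 and 21.7 in SAF6-1 and SAF6-2. Over left-out libraries its log2FC lay between -0.8 and -0.32, and that of SQLE between -0.54 and -0.31. The enzymes' median log2FC lay between -0.38 and 0.23 over the same runs. GGPS1 and MYLIP lay above in every SAF6 library and PMVK and SQLE below, where 7.01% and 8.56% of all genes did.

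Between 1 and 6 months in SAF, 0.303% of 14867 genes and no member were called. DESeq2 called 1 member, MYLIP, without its share of all genes given. By edgeR, 2 members and 12.7% of genes had an unadjusted p under 0.05. MYLIP had a log2FC of 1.27 ± 0.22 over SAF1 values of 28.5, 45.7 and 30.1 CPM, with an edgeR adjusted p of 0.069. Over the alternatives its adjusted p lay between 0.00011 and 0.37. LPCAT3 (0.91 ± 0.36) and STARD3 (-0.45 ± 0.20) followed at edgeR adjusted p of 0.36 and 0.41. LPCAT3 shares exon sequence with EMG1. FDFT1 and MYLIP lay above and STARD3 below in every library, against 8.1% and 10.9% of all genes. Without SAF6-3 the test called 4 members, EBP, FDPS, LPCAT3 and MVK, and 1.6% of all genes. The main SAF test keeps SAF6-3, while the VAF test of the same ages leaves out VAF6-3, so the calls carry this asymmetry.

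No member was called between SAF and VAF at any age. At 1 month no gene was called either (0.0% of 15064); DESeq2 called 0 members, and at an unadjusted p under 0.05 edgeR's test held 1 member and 11.3% of all genes. STARD3 stood at 15.5, 18.3 and 16.6 CPM in SAF1 and at 19.97, 22.2 and 24.7 in VAF1, with a log2FC of -0.41 ± 0.15 and an edgeR adjusted p of 0.42. MYLIP (0.54 ± 0.25) and LSS (0.43 ± 0.22) had edgeR adjusted p of 0.44 and 0.46. STARD3 and LPCAT3 lay below in every SAF1 library and no member above, against 8.79% and 8.7% of all genes.

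At 3 months 0.0401% of 14960 genes and no member were called; DESeq2 called 0 members, and 2 members and 12.6% of genes had an unadjusted p under 0.05 in edgeR's test. MVD stood at 46.4, 48.1 and 46.1 CPM in VAF3, all below the SAF3 values given above, with a log2FC of 0.67 ± 0.19 and an edgeR adjusted p of 0.24. HSD3B7 (0.55 ± 0.23) and SC5D (0.81 ± 0.35) had edgeR adjusted p of 0.39 and 0.40. PMVK, MVD, GGPS1 and HSD3B7 lay above in every SAF3 library and STARD3 below, against 8.17% and 7.82% of all genes. Leaving out VAF3-3, which keeps the 2 libraries with urothelial markers, gave 4 member calls, where 17.6% of all genes were called.

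At 6 months no member and no gene was called (0.0% of 14962), DESeq2 called 0 members, and 1 member and 6.79% of genes had an unadjusted edgeR p under 0.05. MYLIP stood at 79.8 to 91.4 CPM in SAF6 and at 43.2 and 58.8 in the 2 VAF6 libraries tested, with a log2FC of 0.73 ± 0.23 and an edgeR adjusted p of 0.64. DHCR7 (-1.28 ± 0.65), STARD3 (-0.45 ± 0.23) and TM7SF2 (-0.99 ± 0.52) each had an edgeR adjusted p of 0.71. SAF6 keeps SAF6-3, with DHCR7 at 9.21 CPM, while VAF6-3, at 9.34 CPM, is left out, so the folds carry this asymmetry. Over left-out libraries the log2FC of DHCR7 lay between -1.74 and -0.82. MYLIP lay above in every SAF6 library, and TM7SF2, EBP, DHCR7 and STARD3 below, against 14.5% and 13.8% of all genes. Libraries of the same number deviated together at this age. With the replicate block the test called 5.12% of all genes and 2 members, DHCR7 (-0.81) and MYLIP (0.69), with edgeR adjusted p of 0.0053 and 0.023. Over the alternatives these lay between 0.0053 and 1.0 and between 0.023 and 1.0. SAF6-3 has no partner in the block, as VAF6-3 is left out, so these folds rest on the remaining pairs of libraries. With VAF6-3 included as well, the replicate block called 0.

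STARD3 had lower values in SAF than in VAF in every library of the same age, also with VAF6-3, which stood at 17.8 CPM. No other member did so, and 0.826% of the 14292 genes tested at all 3 ages did. The SAF values were 15.5 to 18.3, 11.3 to 14.7 and 11 to 14.6 CPM, and the VAF values 19.97 to 24.7, 15.3 to 19.98 and 16.5 to 17.3. None of the 3 comparisons passed the test.

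The change with age did not differ detectably between the depots. No member and no gene had an interaction of depot and age past an adjusted p of 0.05 in any of the 3 contrasts (0.0% of 16664 genes each). Between 1 and 3 months the change in SAF less that in VAF was largest by p for HSD3B7 (0.64 ± 0.45 on the log2 scale), OSBPL1A (0.45 ± 0.33) and SOAT1 (0.84 ± 0.63), each with an edgeR adjusted p of 1.0. Between 3 and 6 months it was -0.89 ± 0.35 for PMVK, -1.39 ± 0.61 for MVD and -1.40 ± 0.72 for DHCR7, with edgeR adjusted p of 0.52, 0.55 and 0.60. Between 1 and 6 months it was -0.98 ± 0.56 for TM7SF2, -0.56 ± 0.35 for PMVK and -1.12 ± 0.72 for DHCR7, each at an edgeR adjusted p of 1.0. At an unadjusted p under 0.05 the contrasts held 0, 2 and 0 members, against 5.66%, 8.7% and 1.88% of all genes, and DESeq2 called 0 in each. The contrasts with 6 months keep SAF6-3 and leave out VAF6-3, so their values carry this asymmetry.

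The third 6-month library of each depot was low for much of the pathway. EBP stood at 12 CPM in SAF6-3 against 140 and 158 in SAF6-1 and SAF6-2, and at 11.3 in VAF6-3 against 167 and 174. LSS stood at 57.1 CPM in SAF6-3 against 505 and 510, and at 60.7 in VAF6-3 against 428 and 537. ACAT2 stood at 13.7 against 90.5 and 133 in SAF and at 11.8 against 82.5 and 121 in VAF. In each case the third library lay far below both others of its depot.

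Of the 27 members, 11 lay below 0.5 times both other libraries of the group in SAF6-3 and also in VAF6-3: MVK, MVD, FDPS, LSS, CYP51, TM7SF2, EBP, SC5D, DHCR7, ACAT2 and LPCAT3. That is 40.7% of members, where 5.89% of 16101 genes did so. No member lay above 2 times both others in both depots, where 2.79% of genes did. The rule was set after the values were seen, and the 2 libraries are 1 of each depot, so this describes those libraries. The summed macrophage and adipocyte marker levels of the same libraries, given above, also differed, though not every adipocyte marker fell. Their part was not tested.

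The enzymes were not alike in this. SAF6-3 over the mean of the other 2 libraries was 0.952 for FDFT1, 0.780 for SQLE and 0.686 for NSDHL, and 1.36 for LBR; in VAF6-3 the ratios were 0.633, 0.624, 0.452 and 1.44. HMGCS1 stood at 0.407 and 0.481, PMVK at 0.497 and 0.337, MSMO1 at 0.549 and 0.458 and HSD17B7 at 0.437 and 0.601. Outside the enzymes, GGPS1 stood at 0.854 and 0.820, OSBPL1A at 0.860 and 0.889, STARD4 at 0.638 and 0.573, HSD3B7 at 0.380 and 0.642, SOAT1 at 1.05 and 1.46 and STARD3 at 1.29 and 1.05. MYLIP stood at 1.13 in SAF and 1.46 in VAF and FAXDC2 at 1.99 and 1.24. The steadier steps thus included the making of squalene and of its epoxide, between enzymes on either side that lay under 0.5 times the other libraries.

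**Figure D4:**
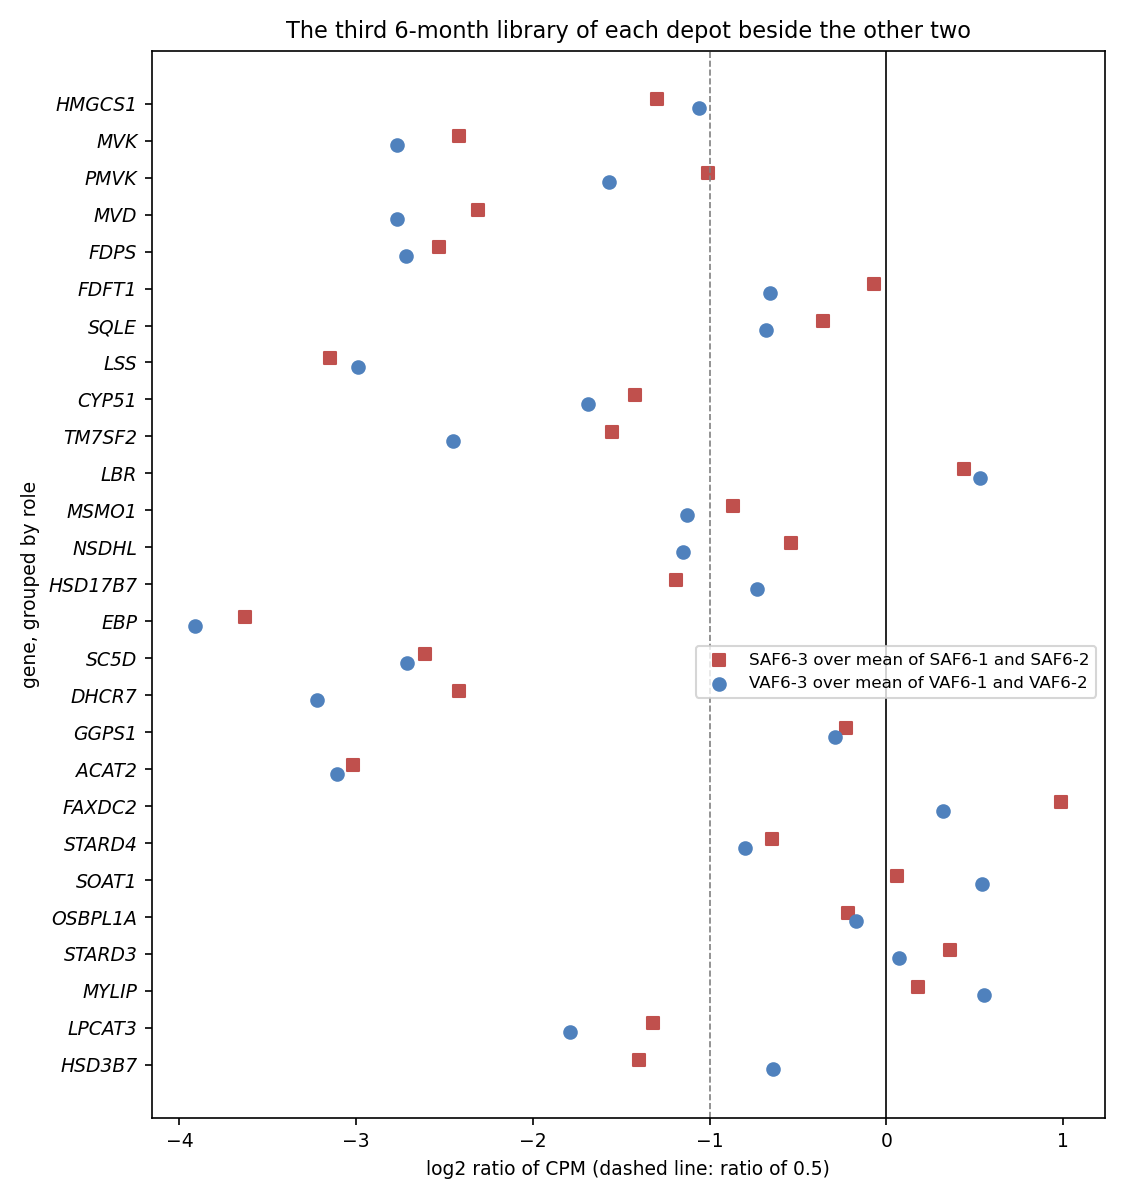
Log2 ratio of CPM in SAF6-3 (squares) and VAF6-3 (circles) to the mean of the other 2 libraries of the group, for each member by role. EBP lies farthest left in both depots, followed by LSS and ACAT2 in SAF and by DHCR7 and ACAT2 in VAF, and LBR and MYLIP lie right of 0.

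Averaged over the 17 enzymes and centred on each gene's mean, log2(CPM + 1) was -0.16 ± 0.27 (SD, n = 3) in SAF1, 0.37 ± 0.12 in SAF3 and 0.04 ± 0.88 in SAF6, and -0.29 ± 0.22, 0.08 ± 0.17 and -0.04 ± 1.02 in VAF1, VAF3 and VAF6. The third libraries stood at -0.97 and -1.22. Without them the 6-month means were 0.55 ± 0.08 and 0.55 ± 0.07 (n = 2 each). These averages are descriptions and were not tested.

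The members differed in how closely they followed the pathway. Pearson's r with the mean of the other enzymes was 0.94 for EBP and ACAT2, 0.92 for MVK and MVD, 0.91 for SC5D and 0.90 for LSS over the 18 libraries; 15 members reached 0.7, where 4.68% of 16101 genes did. LBR (-0.39), FAXDC2 (-0.41) and STARD3 (-0.47) ran the other way. Without SAF6-3 and VAF6-3, r was 0.95 for SC5D, 0.94 for MVK and 0.89 for EBP, 10 members reached 0.7, against 3.50% of genes, and STARD3 was at -0.71. MYLIP went from -0.09 to 0.57 between the 2 sets. The libraries share age groups, depth and scaling, so these values describe likeness across them and no p is given.

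**Figure D5:**
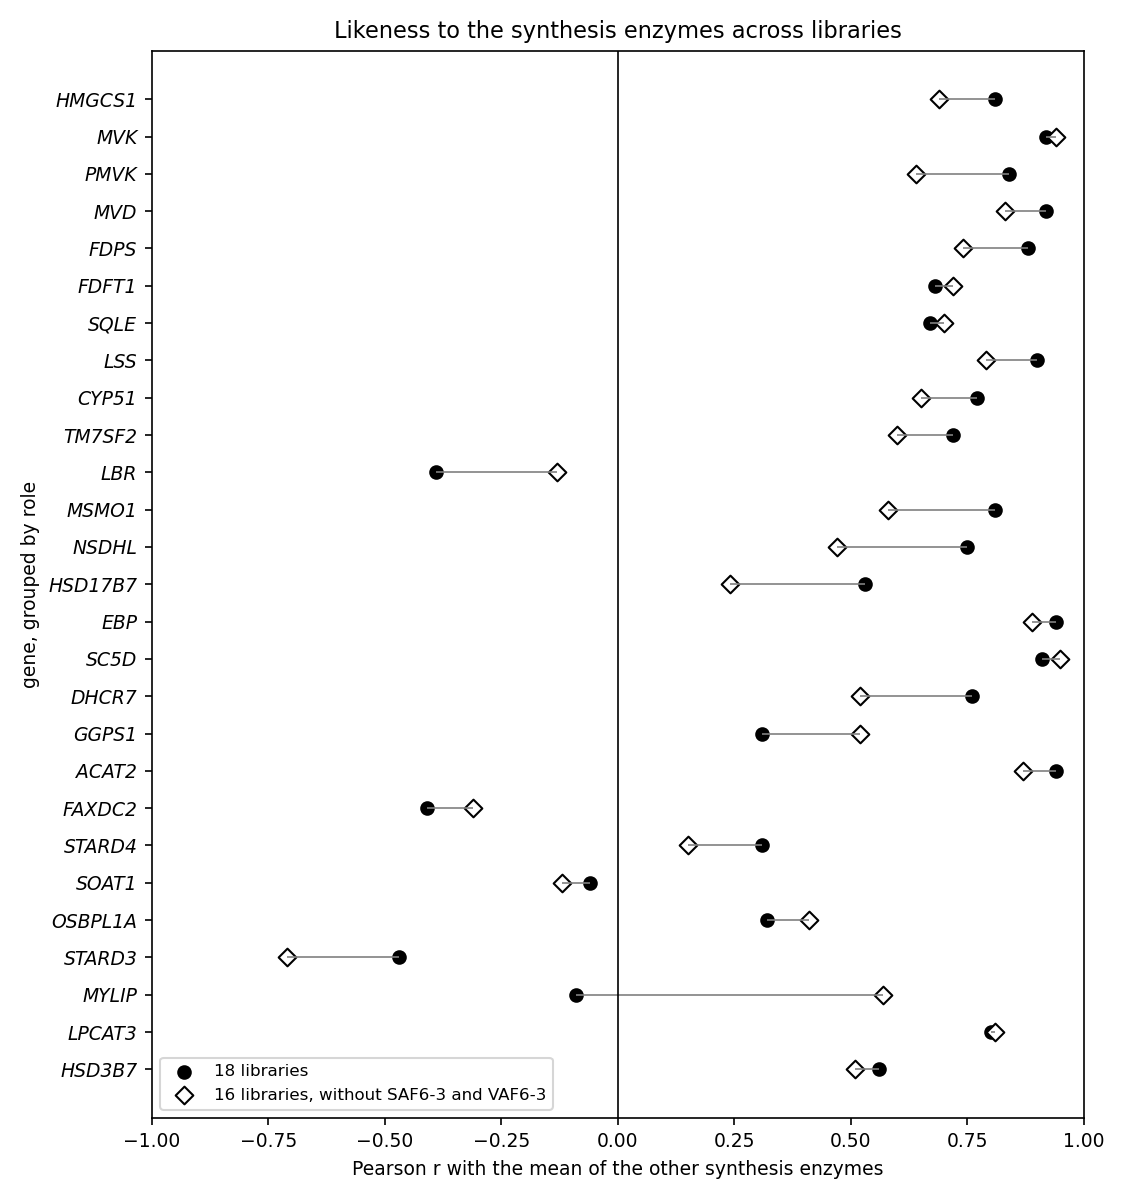
Pearson's r of each member with the mean of the other synthesis enzymes, filled circles over 18 libraries and open diamonds over the 16 libraries without SAF6-3 and VAF6-3. EBP, SC5D, MVK and ACAT2 stay near the right edge in both, and MYLIP moves most, from -0.09 to 0.57.

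Of 29 other cholesterol pathway genes measured, 3 rose in VAF between 1 and 6 months and none fell, with SREBF1, a sterol regulatory element binding protein gene, at a log2FC of 1.47 ± 0.18 and AACS, which activates acetoacetate, at 1.55 ± 0.23 among them (edgeR adjusted p 0.027 and 0.045). Their median log2FC was 0.23. In every other comparison none was called. Of 13 fatty acid synthesis genes, 8 rose in VAF between 1 and 6 months, with a median log2FC of 2.13 over the 13, and none fell. All 13 were positive in that comparison, and 11 of the 13 lay below 0.5 times both other libraries in SAF6-3 and VAF6-3, as did 5 of the 29 other pathway genes. FASN, which makes palmitate, stood at 140 CPM in SAF6-3 against 27259 and 26654, and at 257 in VAF6-3 against 24478 and 40920.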

How the data were processed

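RNA was sequenced from SAF and VAF of 9 male Bama pigs. After fastp filtering, the authors used HISAT2 2.0.4 (version from the submitters' processing notes) for alignment to Sscrofa11.1 and HTSeq for counting; the deposited values are raw counts of 29884 genes, without normalization. The strand setting and annotation release are not given in the sources used here. Samples were grouped by library name. The members and lists were chosen with earlier results of these data known. Every member is named, with tests given for members called and for the 3 of smallest p. Tests between 2 groups used the quasi-likelihood method of edgeR 4.0.16 under R 4.3.3 (TMM, filterByExpr, VAF6-3 left out, adjustment over all genes), and interactions in a fit of 17 libraries; SE was derived from the F statistic. Alternatives used DESeq2 1.42.0 and other settings. Scripts were tested on simulated data. Library totals set the counting precision, which is lowest for STARD4. Python 3.11.15 and pandas 2.3.3 drew the summaries.

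Replicate numbers come from the library names, and the sources do not say that 1 number means 1 pig. Deviations of same-numbered libraries from their group means correlated at 0.522 to 0.704 between SAF6 and VAF6 and at 0.12 to 0.245 between VAF1 and VAF6, which are different pigs, and not above 0.1 throughout in the other comparisons. Within a depot, replicates are separate animals of an age, so p-values between ages measure the spread between these pigs. The same 9 pigs gave both depots, but the main depot and interaction tests hold no term for the pig. Their p-values therefore ignore this pairing. Some upstream sequences are not reported here.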

Additional observations from a re-analysis of the deposited data

How the results depend on the processing

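The counts of called members moved with the setting in several comparisons. They stand here without the share of all genes called in the same setting, so they do not show a change particular to the members. For VAF 6 against 1 month that share also rose with DESeq2 and with the replicate block, as given above. The VAF 6 against 1 month count of 4 became 10 with DESeq2, 9 without a filter, 12 with the replicate block and 0 with all 17 libraries in one fit, with VAF6-3 included or with ages by title; leaving out libraries gave 0 to 2. The SAF 3 against 1 month count of 0 became 5 with DESeq2, 1 without a filter and 1 with the replicate block. For SAF 6 against 1 month it became 1 with DESeq2, without a filter or in the 17-library fit and 4 without SAF6-3 (0 to 4 over left-out libraries), and for SAF 6 against 3 months 1 with DESeq2. In VAF, 6 against 3 months gave 3 with DESeq2, 7 with the replicate block and 0 to 6 over left-out libraries, and 3 against 1 month gave 1 with DESeq2 and 0 to 2. SAF against VAF gave 0 to 4 at 3 months over left-out libraries and 2 with the replicate block at 6 months. Median log2FC of the enzymes moved from 0.28 to 0.10 at 3 months between depots and from 0.24 to 0.47 for VAF 3 against 1 month with ages by title, the latter to 0.53 without VAF3-1 and VAF3-2. For VAF 6 against 3 months it moved from 0.28 to 0.49 with the replicate block, -0.07 with ages by title and 0.01 with VAF6-3, and lay at 0.30 to 0.51 over left-out libraries. For VAF 6 against 1 month it moved from 0.83 to 0.16 with ages by title and 0.45 with VAF6-3. Ages by title also bring VAF6-3 into VAF6, so in comparisons with VAF6 the labels and this library cannot be told apart. Single members reversed in 5 cases: EBP, VAF 6 against 3 months (-0.07), PMVK in the interactions for 6 against 3 (0.10) and 6 against 1 months (0.18), all with ages by title, SOAT1 without VAF1-3 (-0.06, in a range up to 1.12 over left-out libraries) and OSBPL1A without VAF3-1 and VAF3-2 (-0.09). The cause was not tested. The replicate block changed no other count of called members. Between ages this block joins different pigs, so its counts there say little. In comparisons with VAF6 the third library of the other group has no partner, as VAF6-3 is left out. A fit that leaves 1 library in a group takes its spread from the others, so its counts say little.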
